A study of Homo sapiens with 4 samples.

Results

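The prostanoid genes described here are the cyclooxygenases PTGS1 and PTGS2, the terminal synthases PTGIS, PTGES, PTGES2, PTGES3 and TBXAS1, the prostaglandin E2 receptors PTGER2 and PTGER4, and the degrading enzyme HPGD. They are 10 of the 19912 genes in the deposited count table, found by symbol and read in 4 RNA-seq libraries. The libraries came from endothelial cells derived from H1, a human embryonic stem cell line, and sorted for an eGFP reporter of GATA2. The 2 wild-type (WT) libraries were compared with 2 libraries from GFI1 knockout (GFI1-KO) cells of the same line, to ask how the endothelial transcriptome differs without the transcriptional repressor GFI1. The labels give no allele, clone number or day of differentiation. The count columns of the knockout libraries are headed GFI1, and nothing says that replicates came from separate cultures, so the spread between replicates may be technical. The genes were selected on role, as a prostanoid set chosen with the WT and GFI1-KO counts of this comparison in view, so their differences are given as values and not as tests.

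Prostanoids are short-range lipid signals made from arachidonic acid. Phospholipases release arachidonic acid from membranes, cyclooxygenases turn it into prostaglandin H2, and terminal synthases convert that intermediate into prostacyclin, prostaglandin E2 or thromboxane. In vessel walls prostacyclin relaxes smooth muscle and restrains platelets, thromboxane does the opposite, and prostaglandin E2 is known as a regulator of blood stem cell formation in vertebrate embryos.

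In WT cells nearly all cyclooxygenase reads came from PTGS1, and PTGS1 was lower in both GFI1-KO libraries while PTGS2 was higher in both. The PTGS2 difference rests on few reads, and the interval of its pooled ratio, 0.992 to 2.88, spans no difference. The cytosolic prostaglandin E synthase gene PTGES3 was abundant in all 4 libraries and differed little. The genes for the prostacyclin, thromboxane and inducible prostaglandin E synthases, and for the EP2 and EP4 receptors, were near or at the limit of detection. Of the 10 genes, 6 had at most 9 counts in every library, and 4 passed the low-count filter of the fit (PTGS1, PTGS2, PTGES2 and PTGES3).

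The sequences upstream of PTGS1 and PTGS2 are shown because these genes carry the cyclooxygenase reads. In the GFI1-KO libraries the PTGS1 values were lower and the PTGS2 values, on few reads, were higher. The RefSeq promoter table (GRCh38.p14) held 9 of the 10 genes, in 13 entries; PTGIS was not matched. The first PTGS1 window is chr9:122370283-122370532 on the plus strand, the second, before a start further downstream in the gene, is chr9:122375052-122375301 on the plus strand, and the PTGS2 window is chr1:186680424-186680673 on the minus strand. Each holds the 250 bases before a start, and capitals mark 3 motifs on either strand: the TATA box (TATAAA), the GC box read by Sp1 (GGGCGG) and the core of the cyclic AMP response element (CGTCA).
PTGS1, first start: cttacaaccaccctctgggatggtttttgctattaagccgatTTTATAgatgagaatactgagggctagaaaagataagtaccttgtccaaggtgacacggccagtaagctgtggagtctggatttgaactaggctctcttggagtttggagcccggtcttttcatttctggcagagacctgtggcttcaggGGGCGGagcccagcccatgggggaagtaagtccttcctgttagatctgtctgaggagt
PTGS1, second start: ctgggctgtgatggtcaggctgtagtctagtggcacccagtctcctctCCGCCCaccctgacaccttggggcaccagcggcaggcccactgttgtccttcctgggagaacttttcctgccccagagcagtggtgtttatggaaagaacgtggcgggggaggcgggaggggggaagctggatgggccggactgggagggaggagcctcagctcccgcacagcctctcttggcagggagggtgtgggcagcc
PTGS2: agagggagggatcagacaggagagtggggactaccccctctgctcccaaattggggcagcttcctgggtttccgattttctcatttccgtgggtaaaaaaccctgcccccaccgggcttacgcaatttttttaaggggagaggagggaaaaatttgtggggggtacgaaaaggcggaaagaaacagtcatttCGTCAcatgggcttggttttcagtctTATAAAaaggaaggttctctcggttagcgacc
The PTGS2 window holds the TATA box letters 32 bases before the start and those of the cyclic AMP response element core 58 bases before it. The window at the second PTGS1 start, which is 65.2% G and C, holds neither of these, and has the GC box on the opposite strand 202 bases before the start. The window at the first PTGS1 start has a GC box 58 bases before the start, the TATA box letters on the opposite strand at 208 bases, and the core of the GATA motif (GATAA) at 177 bases. The core of the GFI1 motif (AATC) has 2 matches in that window, 1 in the PTGS2 window and 0 in the second PTGS1 window. The motifs do not overlap in these windows except in the first, where the GFI1 core and the TATA box letters share a base. Of 35114 RefSeq windows of the same length, on either strand 10.7% hold the TATA box letters, 42.6% the GC box, 21.2% the cyclic AMP element core, 20.4% the GATA core and 64.8% the GFI1 core. These matches are letters in a window and show no binding.

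WT replicates 1 and 2 held 2239214 and 2417410 counts, GFI1-KO replicate 2 held 2332621, and GFI1-KO replicate 1 was shallow, with 146584. Values are given as counts and as CPM, counts scaled to the TMM-adjusted library total (R package edgeR) in the usual CPM unit. A single count is worth 6.59 CPM in GFI1-KO replicate 1 and 0.417 to 0.444 CPM in the other 3 libraries, so for low genes that library says little. Intervals are exact 95% intervals and cover counting error only. Replicates differed by more than counting error. Across genes with enough reads, the chi-square per degree of freedom was 4.91 between the WT libraries and 2.50 between the GFI1-KO libraries. Counting error alone gives values near 1. GFI1 itself had counts of 131 and 139 in the WT libraries against 3 and 44 in the knockouts. In CPM these are 58.2 and 58.0 in WT against 19.8 and 19.5 in GFI1-KO, a ratio of pooled counts of 0.336. GFI1 transcript was thus lower but still read in both knockout libraries. GATA2, whose reporter defined the sort, was at 292 and 250 CPM in WT against 138 and 123 CPM in GFI1-KO. Of the 10 endothelial markers all were detected, including CDH5 at 639 to 1003 CPM, and PTPRC, the leukocyte CD45 gene, had 0 counts in every library. Other leukocyte markers were present. LAPTM5 was at 229 and 216 CPM in WT against 184 and 230 CPM in GFI1-KO, and LCP1 at 20.4 and 41.3 CPM against 26.3 and 16.8 CPM. CORO1A had counts of 6 and 5 in WT against 0 and 14 in GFI1-KO, and CD53 0 and 0 against 0 and 7.

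PTGS1 encodes COX-1, the cyclooxygenase present in resting endothelium and in platelets (ENSG00000095303, chromosome 9, 122370530 to 122395703, plus strand, GRCh38). It had counts of 229 and 211 in the WT libraries against 8 and 86 in the knockouts. These are 102 and 88.0 CPM in WT against 52.7 and 38.1 CPM in GFI1-KO, so both knockout libraries lay below both WT libraries. The group means were 94.9 ± 9.65 CPM and 45.4 ± 10.3 CPM (SD, n = 2 each). The log2 fold change of the edgeR fit, which is not the ratio of these unweighted means, was -1.23 (SE 0.28). The ratio of pooled counts was 0.412, with an interval of 0.326 to 0.516. In GFI1-KO replicate 2 the counting interval was 30.4 to 47.0 CPM, beside those of WT replicates 1 (88.9 to 116 CPM) and 2 (76.6 to 101 CPM). In the shallow GFI1-KO replicate 1 it was 22.8 to 104 CPM, which overlaps both. The difference was as large without that library, at a log2 value of -1.32, and was -0.84 when GFI1-KO replicate 2 was left out.

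PTGS1 was the member past the threshold of the edgeR fit over all 11380 genes (adjusted p = 0.0477), as were 0.958% of all genes tested and 0.185% in the lower direction; since the set was proposed from this comparison, nothing is read from that call. It was past the threshold in 4 of 11 alternative fits, and the adjusted p ran from 0.000886 to 0.68 over them. The call was lost with DESeq2 (0.68), with upper-quartile scaling (0.067), with a minimum mean of 5 CPM (0.0722), with the newer quasi-likelihood dispersion (0.0781), and with WT replicate 1 (0.539), WT replicate 2 (0.186) or the deep knockout library, GFI1-KO replicate 2 (0.463), left out.

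PTGS2 encodes COX-2, the cyclooxygenase induced by cytokines, growth factors and flow (ENSG00000073756, chromosome 1, 186671791 to 186680427, minus strand). It had counts of 18 and 15 in the WT libraries against 2 and 27 in the knockouts. In CPM these are 7.99 and 6.26 in WT against 13.2 and 12.0 in GFI1-KO, so the knockout libraries lay above WT, on few reads. The log2 fold change was 0.76 (SE 0.50), and the pooled ratio of 1.69 had an interval of 0.992 to 2.88. PTGS1 gave 229 of 247 cyclooxygenase reads (92.7%, interval 88.7% to 95.6%) in WT replicate 1 and 211 of 226 (93.4%, 89.3% to 96.2%) in WT replicate 2. In GFI1-KO replicate 2 it gave 86 of 113 (76.1%, 67.2% to 83.6%). In GFI1-KO replicate 1 it gave 8 of 10 (80%, 44.4% to 97.5%), an interval that covers both WT intervals. These intervals cover counting error only, and replicates differed by more than that. With counts divided by exon length the shares were 92.0% and 92.8% in WT against 78.4% and 74.3% in the knockouts. Summed over both genes, cyclooxygenase reads came to 110 and 94.3 CPM in WT against 65.9 and 50.02 CPM in GFI1-KO.

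**Figure D1:**
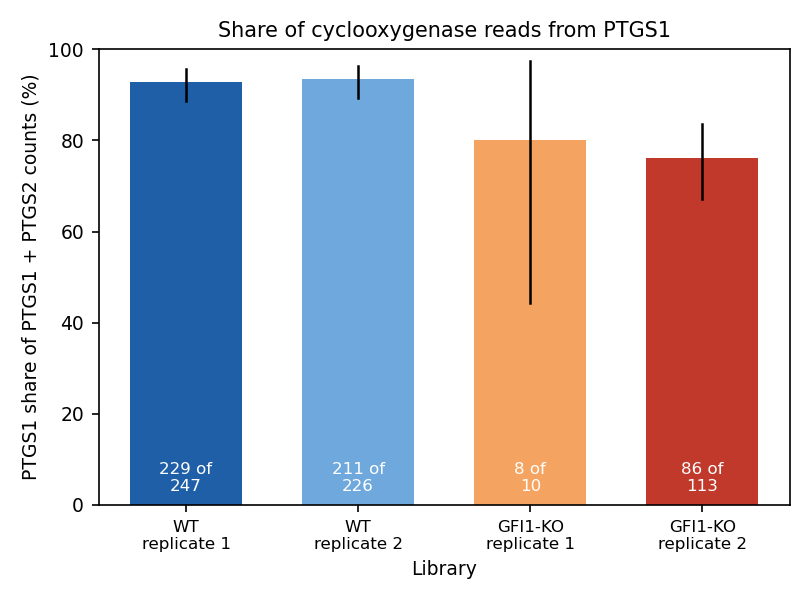
Percentage of PTGS1 among PTGS1 and PTGS2 counts in each library (bars from 0), with exact 95% binomial intervals as black lines and the counts printed in the bars. The WT libraries are at 92.7% and 93.4%, and the GFI1-KO libraries at 80% and 76.1%, the first of them on 10 reads.

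Prostaglandin E2 can be made by 3 of the synthases. PTGES3, a cytosolic synthase that is also the HSP90 co-chaperone p23, had counts of 863 and 956 in the WT libraries against 45 and 855 in the knockouts (chromosome 12, 56663341 to 56688408, minus strand). Its levels were 383 and 399 CPM in WT against 296 and 378 CPM in GFI1-KO, a log2 fold change of -0.17 (SE 0.21) and a pooled ratio of 0.954 (interval 0.88 to 1.03). The counting interval of GFI1-KO replicate 2, 353 to 405 CPM, overlaps those of both WT libraries. PTGES2, a membrane-associated synthase, had counts of 74 and 117 in the WT libraries against 2 and 80 in the knockouts, that is 32.9 and 48.8 CPM against 13.2 and 35.4 CPM. The groups overlapped, with GFI1-KO replicate 2 between the WT libraries, and the log2 fold change was -0.35 (SE 0.35). PTGES, the inducible microsomal synthase that is commonly coupled to COX-2, had counts of 2 and 0 in the WT libraries against 0 and 1 in the knockouts.

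The synthases of prostacyclin and thromboxane were scarce. PTGIS, the prostacyclin synthase gene characteristic of mature vessel walls, had counts of 4 and 5 in the WT libraries against 0 and 3 in the knockouts. Its pooled ratio of 0.643 had an interval of 0.112 to 2.58, so at this depth the counts allow a difference in either direction within those limits. TBXAS1, the thromboxane synthase gene of platelets and macrophages, had counts of 7 and 7 in the WT libraries against 5 and 8 in the knockouts. The 5 counts in GFI1-KO replicate 1 are 32.9 CPM (interval 10.7 to 76.9), above the other 3 libraries at 2.92 to 3.54 CPM. Without that library the pooled ratio of TBXAS1 fell from 1.79 to 1.176 (interval 0.427 to 3.003), so the higher GFI1-KO mean rests on those 5 reads.

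HPGD, the NAD-dependent dehydrogenase that inactivates prostaglandin E2, had counts of 1 and 5 in the WT libraries against 2 and 9 in the knockouts (chromosome 4, 174490177 to 174523154, minus strand). In CPM these are 0.444 and 2.09 against 13.2 and 3.98, with both knockout libraries above both WT libraries. In GFI1-KO replicate 1 a single count is already 6.59 CPM, above both WT values. Its 13.2 CPM is 2 counts, with an interval of 1.60 to 47.6 CPM that covers WT replicate 2. The pooled ratio was 3.53 with an interval of 1.198 to 11.6. It was 2.19 (0.700 to 8.03) without WT replicate 1, 10.3 (1.49 to 442) without WT replicate 2, 3.09 (0.981 to 10.5) without GFI1-KO replicate 1, and 10.2 (1.007 to 57.1) without GFI1-KO replicate 2, where the knockout side rests on 2 counts. HPGD did not pass the low-count filter and was not fitted.

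**Figure D2:**
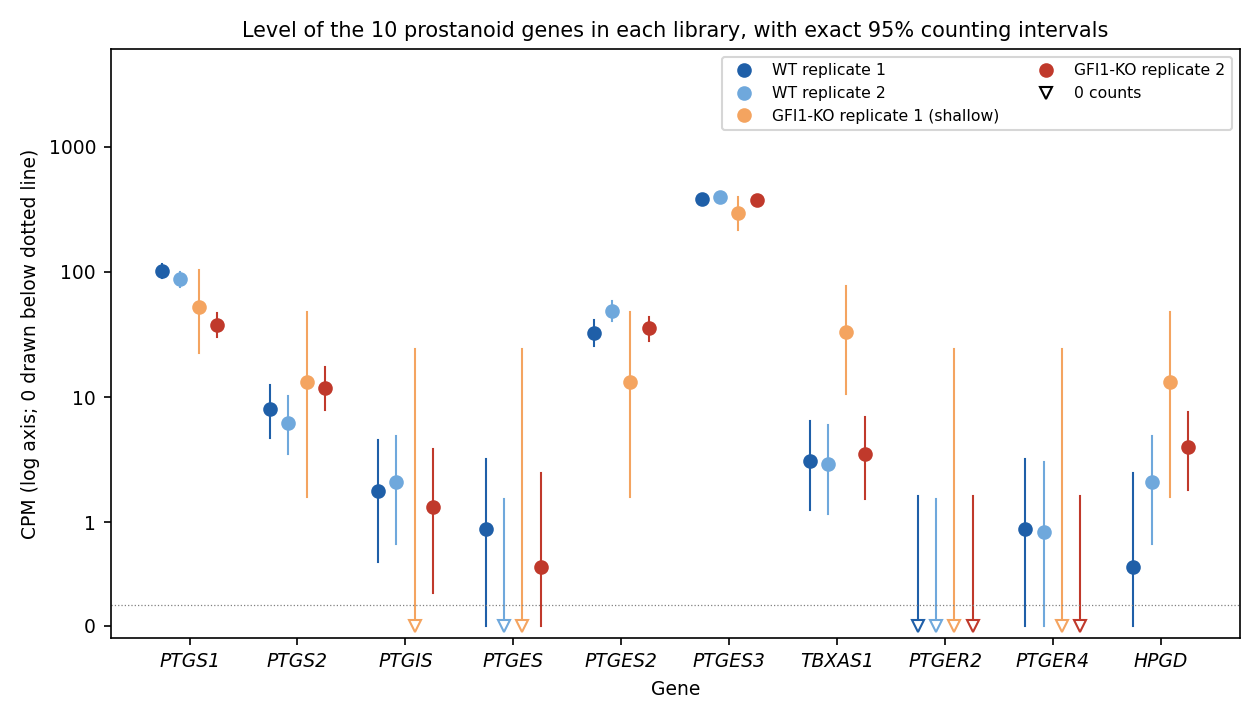
CPM of the 10 genes in each of the 4 libraries on a log axis, with points at 0 drawn below the dotted line and exact 95% counting intervals as vertical lines. PTGS1 is at 102 and 88.0 CPM in WT against 52.7 and 38.1 CPM in GFI1-KO, PTGES3 is at 296 to 399 CPM throughout, and the long intervals belong to the shallow GFI1-KO replicate 1.

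PTGER2 and PTGER4 encode EP2 and EP4, the prostaglandin E2 receptors that raise cyclic AMP through the stimulatory G protein. PTGER2 had 0 counts in all 4 libraries, for which the exact interval reaches up to 1.54 to 1.64 CPM in the deep libraries and 24.3 CPM in GFI1-KO replicate 1. PTGER4 had counts of 2 and 2 in the WT libraries against 0 and 0 in the knockouts, a pooled ratio of 0 with an upper limit of 2.92. The other 7 prostanoid receptor genes were read beside them. TBXA2R, the thromboxane receptor gene, had 30.6 and 27.5 CPM in WT against 32.9 and 37.2 CPM in GFI1-KO (log2 fold change 0.33, SE 0.32, adjusted p = 0.878). PTGDR2, a prostaglandin D2 receptor gene, had 12.0 and 15.0 CPM in WT against 19.8 and 12.0 CPM in GFI1-KO (adjusted p = 0.994). PTGFRN, which encodes a membrane protein that binds the prostaglandin F receptor and is no receptor itself, was tested with this list, at 89.7 and 79.3 CPM in WT against 112 and 81.4 CPM in GFI1-KO (log2 fold change 0.070). PTGER3, the inhibitory EP3 receptor gene, had counts of 46 and 19 in the WT libraries against 7 and 13 in the knockouts; the 7 counts of GFI1-KO replicate 1 are 46.1 CPM and the other values are 20.4, 7.93 and 5.75 CPM (adjusted p = 0.942). The receptors for prostacyclin (PTGIR), prostaglandin D2 (PTGDR), prostaglandin F2 alpha (PTGFR) and prostaglandin E2 at EP1 (PTGER1) had at most 2 counts in any library. The receptor transcripts present were thus those of the thromboxane, EP3 and second prostaglandin D2 receptors, and 0 of the tested receptor genes passed the threshold.

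**Figure D3:**
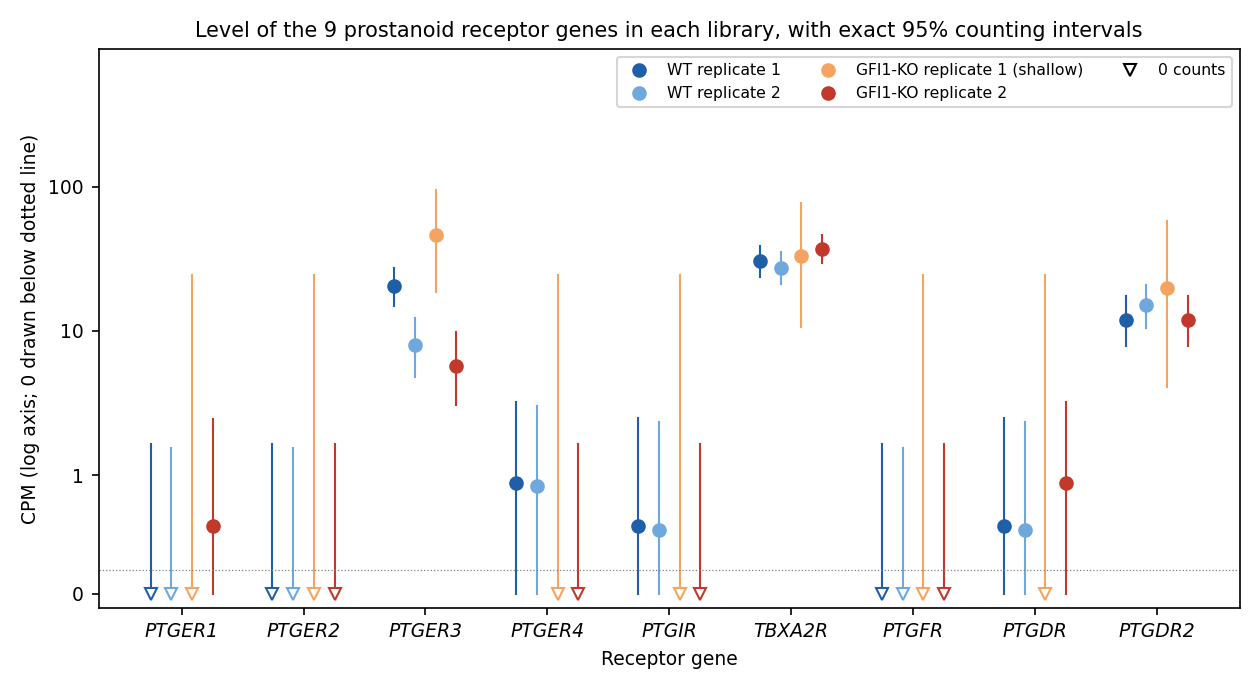
CPM of the 9 prostanoid receptor genes in each library on a log axis, drawn as in the plot of the 10 genes, with 0 below the dotted line and exact 95% counting intervals. TBXA2R is at 27.5 to 37.2 CPM in all 4 libraries, PTGER2 and PTGFR are at 0 in all of them, and PTGER4 is at 0 in both GFI1-KO libraries.

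Per kilobase of annotated exon the levels of the set spanned a wide range. In WT the mean was 115 CPM per kb for PTGES3, 16.4 for PTGS1, 13.4 for PTGES2, 1.35 for PTGS2, 0.486 for TBXAS1, 0.346 for PTGIS, 0.234 for PTGES, 0.229 for HPGD and 0.217 for PTGER4. PTGS1 (15.2 and 17.6 CPM per kb) and PTGES2 (10.8 and 16.1) overlapped between the WT libraries, as did each neighbouring pair from PTGIS down to PTGER4. The ranges of PTGES3 and PTGS1, of PTGES2 and PTGS2, of PTGS2 and TBXAS1, and of TBXAS1 and PTGIS did not overlap, the last of these on 4 to 7 counts a library. In GFI1-KO replicate 2 PTGES2 (11.7 CPM per kb) stood above PTGS1 (6.57), and in GFI1-KO replicate 1 PTGS1 (9.10) stood above PTGES2 (4.34, on 2 counts). By the mean of the 4 libraries per kb, 97.7% of the genes tested lay below PTGES3, 66.4% below PTGS1, 62.5% below PTGES2 and 13.3% below PTGS2.

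**Figure D4:**
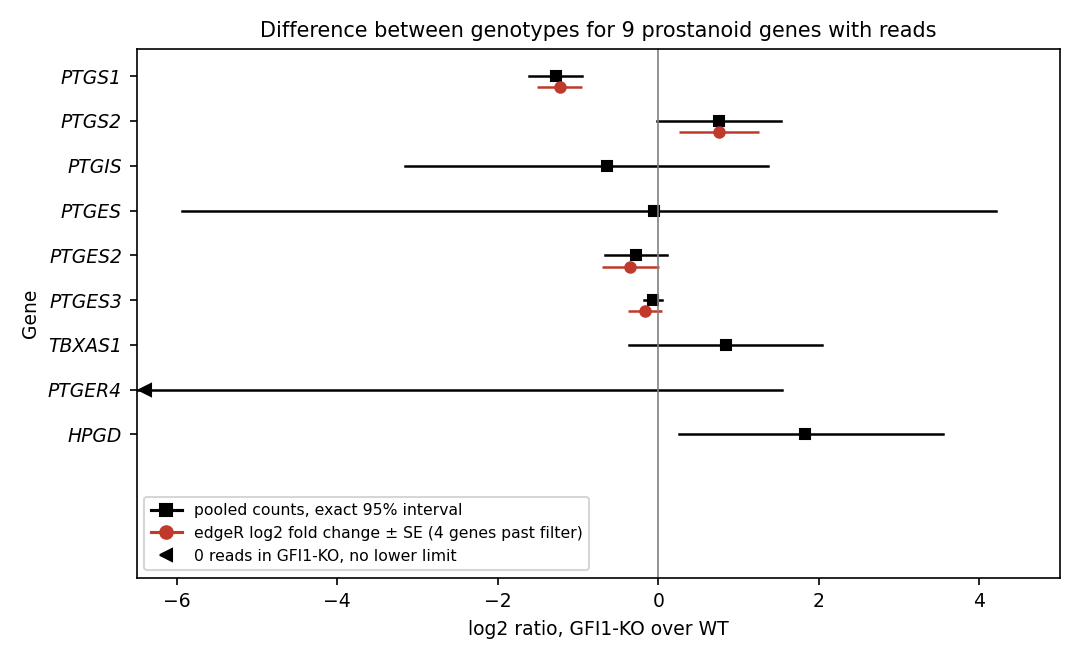
Log2 ratio of GFI1-KO over WT for the 9 genes with reads, as pooled counts with exact 95% intervals (squares) and as edgeR log2 fold changes with SE (circles, the 4 genes past the low-count filter). For PTGS1 the edgeR value is -1.23 and the pooled counts have an interval of -1.62 to -0.955. The interval of HPGD is 0.261 to 3.54 on few reads, and it spans 0 without WT replicate 1 or without GFI1-KO replicate 1. Intervals cover counting error only, and the arrow for PTGER4 marks 0 reads in GFI1-KO.

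Among the 4 genes that passed the filter, which are not the whole set, the median log2 fold change was -0.26, against -0.024 over all genes tested. The CPM of the GFI1-KO libraries and the WT libraries did not overlap for 3 of the 4 (PTGS1, PTGS2 and PTGES3), and for 41.2% of all genes tested, so the share is no result about the set. No exon of the 10 genes overlaps an exon of another gene in GENCODE release 29.

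PTGS1 and TBXAS1 are also genes of megakaryocytes and platelets, and markers of those cells were read beside them. The summed level of 6 such markers was 32.4 and 38.8 CPM in WT against 19.8 and 14.6 CPM in GFI1-KO, lower in the same libraries as PTGS1. The 19.8 CPM of GFI1-KO replicate 1 is 3 counts, with an exact interval of 4.08 to 57.8 CPM that covers both WT sums. ITGA2B, a platelet integrin gene, had counts of 17 and 46 in the WT libraries against 0 and 4 in the knockouts (log2 fold change -2.98, edgeR adjusted p = 0.0893). GP1BA, a platelet adhesion receptor gene, had 52 and 44 against 2 and 14 (log2 fold change -1.59, edgeR adjusted p = 0.169). The platelet granule gene PPBP was at 0 counts in all 4 libraries, and GP9 had counts of 1 and 1 in the WT libraries and 0 in both GFI1-KO libraries. The platelet tubulin gene TUBB1 had counts of 0 and 2 in the WT libraries against 0 and 3 in the knockouts. PF4, which encodes platelet factor 4, lay the other way, with counts of 3 and 0 in WT against 1 and 12 in GFI1-KO (log2 fold change 2.94, adjusted p = 0.235). Of the 6 markers 3 were tested and 0 passed the threshold. The summed level of 10 endothelial markers was 5439 and 5676 CPM in WT against 6706 and 8123 CPM in GFI1-KO, and 1 of the 10 passed the threshold (EMCN, edgeR adjusted p = 0.00959). Most of that sum was KDR, at 2978 and 3267 CPM in WT against 3682 and 4942 CPM in GFI1-KO. Of the 10 log2 fold changes 9 were above 0 and 1 below, that of PECAM1, at 441 and 386 CPM against 343 and 322 CPM. The 8 myeloid markers summed to 11.5 and 13.8 CPM against 19.8 and 14.2 CPM, where the 19.8 CPM is 3 counts. CD68, with the most reads, had counts of 22 and 19 in WT against 1 and 19 in GFI1-KO. CD14 had counts of 0 and 0 in WT against 1 and 1 in GFI1-KO, and LYZ 2 and 4 against 1 and 8. MPO (0 and 5 counts in WT) and CYBB (1 and 2) had 0 counts in both GFI1-KO libraries. The 9 markers of smooth muscle and stroma, cells that also make prostacyclin, summed to 1680 and 1064 CPM against 1067 and 1255 CPM, most of it from COL1A1 and COL3A1. The part of these markers, and of the lower GATA2, in the PTGS1 difference was not tested; in bulk RNA, fewer cells with a transcript and less transcript per cell cannot be told apart.

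The rest of the pathway was read through 7 textbook lists with 85 genes, of which 55 passed the low-count filter. Of these 55, edgeR called 0 higher and 0 lower at an adjusted p under 0.05; 5 had an unadjusted p under 0.05, beside 9.35% of all genes tested, a share near that of the pathway, and DESeq2 called 0 of 42. Their median log2 fold change was 0.051, with 30 values above 0 and 25 below; over all genes tested 47.5% were above 0. Without GFI1-KO replicate 1, a fit that called 3.18% of all its genes, the count was 4 of 58, with NR4A1 (1.05, adjusted p = 0.00406), PDE4B (1.13, adjusted p = 0.00168) and MGLL (2.33, adjusted p = 0.0458) higher and PRKAR2B (-0.96, adjusted p = 0.018) lower; without WT replicate 2, where 0.833% of all genes were called, it was 1 of 58, NR4A1 (2.29, adjusted p = 0.000417).

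Upstream of the cyclooxygenases, 9 of 16 genes of arachidonic acid release and handling were tested and 0 passed, with a median of 0.060. The cytosolic phospholipase A2 gene PLA2G4A, the main source of arachidonic acid for cyclooxygenases, had counts of 6 and 4 in the WT libraries against 0 and 4 in the knockouts. ACSL4, which activates arachidonic acid, was at 91.0 and 105 CPM in WT against 85.6 and 108 CPM in GFI1-KO (log2 fold change 0.060). The others with the highest levels were PLAA, a phospholipase A2 activating protein gene (-0.18), LPCAT3, which puts arachidonic acid into membranes (-0.32; 65.6% of its exons lie across from EMG1), and the lysosomal phospholipase gene PLA2G15 (0.27). PLA2G6, a calcium-independent phospholipase gene named after its value was seen, had counts of 40 and 42 in the WT libraries against 1 and 19 in the knockouts (-1.09, SE 0.45, adjusted p = 0.415).

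Of 7 other synthase genes 4 were tested and 0 passed, with a median of -0.079. AKR1B1, an aldose reductase with prostaglandin F synthase activity, was at 79.9 and 79.7 CPM in WT against 52.7 and 77.5 CPM in GFI1-KO (-0.14, SE 0.25), and PRXL2B, another prostaglandin F synthase gene, was at -0.014 on the log2 scale. AKR1C3 was at -0.23 and CBR1 at 0.68, with adjusted p of 0.947 and 0.801. The prostaglandin D synthase genes PTGDS and HPGDS had 0 counts in all 4 libraries. Of 5 genes of transport and breakdown 4 were tested and 0 passed, with a median of -0.11. ABCC4, an exporter of prostaglandins, was at 109 and 119 CPM in WT against 132 and 96.9 CPM in GFI1-KO (-0.11, SE 0.27), and SLCO2A1, the prostaglandin uptake transporter gene, had 21 and 16 counts against 0 and 12 (-0.72, SE 0.62, adjusted p = 0.852). PTGR1 and CBR4 were at -0.11 and -0.024.

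Downstream of the receptors, 21 of 24 genes of cyclic AMP signalling were tested and 0 passed, with a median of 0.17. Of these 21 values 16 were above 0, against 5404 of all 11380 genes tested (47.5%), and the difference in share was not tested. GNAS, the stimulatory G protein gene, was at 1573 and 1350 CPM in WT against 1653 and 1641 CPM in the knockouts (log2 fold change 0.17, SE 0.21, adjusted p = 0.914). PRKAR2B, a regulatory subunit gene of protein kinase A, had counts of 339 and 359 in the WT libraries against 11 and 174 in the knockouts. In CPM these are 151 and 150 against 72.5 and 77.02, with close replicates and no overlap (-0.98, SE 0.25, adjusted p = 0.077). PRKAR1A and PRKACA, a regulatory and a catalytic subunit gene, were at 0.11 and 0.29. The genes named after their values were seen are PDE4B and PDE8A, phosphodiesterases that break down cyclic AMP, and the adenylyl cyclase gene ADCY7. PDE4B was at 41.3 and 47.6 CPM in WT against 39.5 and 97.4 CPM in the knockouts (log2 fold change 0.92, SE 0.28, adjusted p = 0.181), with the knockout libraries on either side of WT. PDE8A was at 11.5 and 15.9 CPM against 32.9 and 30.1 CPM (1.15, SE 0.38, adjusted p = 0.215). ADCY7, 41.6% of whose exons lie across from BRD7, was at 41.7 and 41.3 CPM against 13.2 and 24.8 CPM (-0.84, SE 0.33, adjusted p = 0.363). PLA2G6, PRKAR2B, PDE4B, PDE8A and ADCY7 are the 5 with an unadjusted p under 0.05.

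Of 9 genes listed for the cyclic AMP response 6 were tested and 0 passed, with a median of 0.50. That list mixes target genes with CRTC2, which encodes a coactivator of the response. NR4A1, an immediate early nuclear receptor gene, differed within WT, at 21.3 and 108 CPM, and within GFI1-KO, at 39.5 and 135 CPM. That spread between replicates exceeds the difference between genotypes (0.76, SE 0.37, adjusted p = 0.759). PER1, CRTC2 and PDE10A were at -0.30, -0.086 and 0.50, with adjusted p of 0.852, 0.98 and 0.762. In the leukotriene and epoxide branches, which use the same arachidonic acid, 7 of 16 genes were tested and 0 passed, with a median of -0.70. LTA4H, the leukotriene A4 hydrolase gene, was at -0.19, the epoxide hydrolase genes EPHX1 and EPHX2 at -0.71 and -0.70, and the leukotriene B4 receptor gene LTB4R at 0.81, with adjusted p from 0.577 to 0.937. The 5-lipoxygenase gene ALOX5 had counts of 11 and 4 in the WT libraries against 0 and 4 in the knockouts, and its partner ALOX5AP had 2, 0, 0 and 0.

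**Figure D5:**
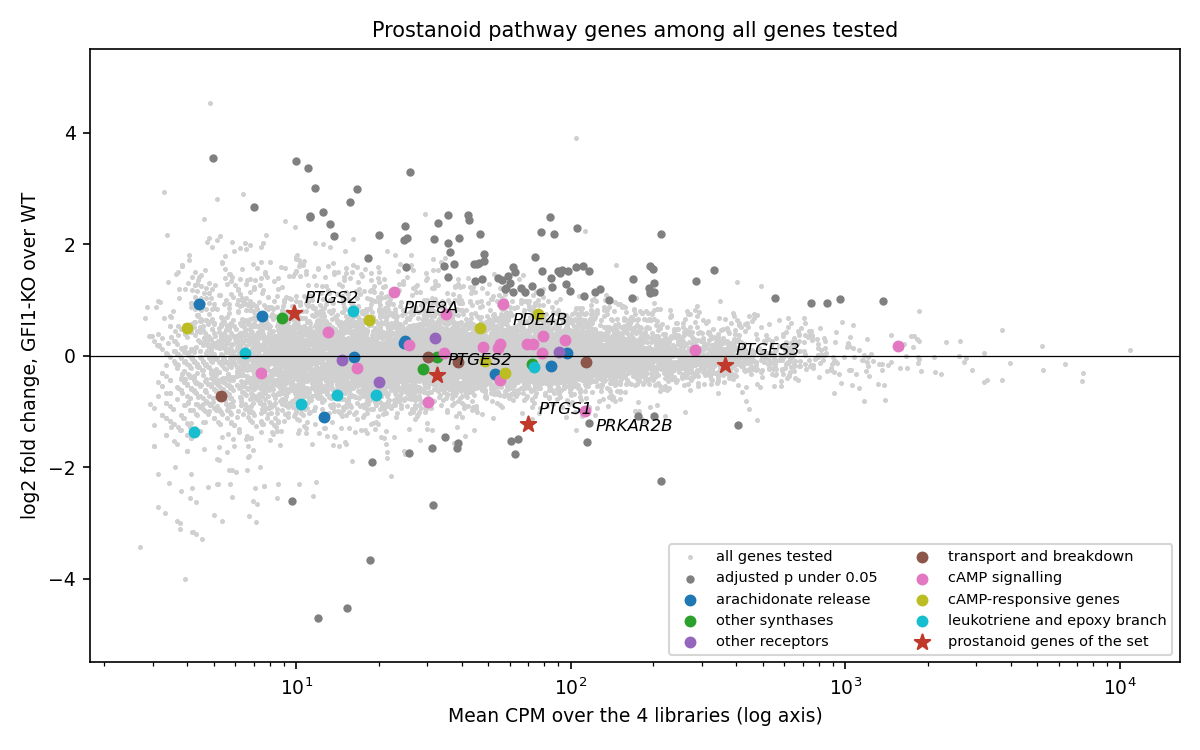
Log2 fold change of GFI1-KO over WT against the mean CPM of the 4 libraries (log axis) for all 11380 genes tested (light grey), the 109 called genes (dark grey), the 55 other pathway genes by list (coloured points) and the 4 fitted prostanoid genes (stars). The pathway points lie within the light grey cloud, and PTGS1, at -1.23, is at its lower edge.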

How the data were processed

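Total RNA, isolated with Trizol, was made into Illumina TruSeq libraries, per the labels' protocols. The table deposited by the authors gives unnormalized read counts, 1 row per gene and 1 column per library. The submitters' processing notes name HISAT2 (2.0.4), SAMtools (1.3.1), HTSeq (0.6.0), DESeq (1.18.1) and the builds hg38 and GRCh38. For the order of these steps, the annotation, the read filters and the strand setting, the entry is: not given in the sources used here. Reads of similar or overlapping genes may therefore have been dropped or split.

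Of 19912 gene identifiers, 19902 matched GENCODE release 29, which gave coordinates and exon lengths. The quasi-likelihood test of edgeR 4.0.16 (glmQLFit, glmQLFTest; R 4.3.3) was run on genotype after TMM scaling and filterByExpr (minimum count 10, total 15). P-values were adjusted by Benjamini-Hochberg over 11380 genes, with a threshold of 0.05. Log2 fold changes use a prior count of 0.125, and the SE divides the unshrunken value by the root of F. Pooled ratios divide summed counts by summed TMM-adjusted totals. Alternatives, given in the closing section, were DESeq2 1.42.0, other scalings, filters and dispersion, a replicate block, and each library left out in turn. The members and lists were chosen with earlier results of these data known. The text names the 10 members, GFI1, GATA2, any called pathway gene and, per list, up to 4 tested genes with the highest mean CPM; all others, among them untested pathway genes and the cell type markers, were named after their values were seen. A further marker of the platelet list is not reported here.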

Additional observations from a re-analysis of the deposited data

How the results depend on the processing

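The count of called genes, 109 in the edgeR fit, was 31 with DESeq2, 58 with upper-quartile scaling, 305 with no filter on low counts, 50 with a minimum mean of 5 CPM, 58 with the newer quasi-likelihood dispersion and 327 with the replicate block; leaving out each library gave 62 to 373. The count of called pathway genes, 0, was 2 with no filter on low counts (PRKAR2B and PDE4B) and 1 with the replicate block (PRKAR2B, adjusted p = 0.0108), and leaving out each library gave 0 to 4. Replicate numbers are shared between genotypes but no label ties them to a common culture, and the deviations of same-numbered libraries from their group means correlated at 0.11 across all genes tested and at 0.249 across the 4734 with a mean of at least 50 CPM; with 2 pairs and no such label the numbers were not taken as pairs, and with the replicate block PTGS1 had an adjusted p = 0.00507. The sign of the log2 fold changes of PTGS1, PTGS2, PTGES2 and PTGES3 was the same in each alternative, and the value of PTGES2 ran from -1.62 without GFI1-KO replicate 2 to -0.086 without WT replicate 2. In fits with a library left out the lone library of a genotype is assumed to vary like the others. The cause of these differences was not tested. Depth limits PTGIS, PTGES, PTGER2, PTGER4, TBXAS1 and HPGD, at no more than 9 counts in a library.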
